A study of Mus musculus with 11 samples.

Results

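Upper-layer excitatory neurons of the mouse cortex were followed as the nuclei in which Cux2, a transcription factor of the upper cortical layers, was the leading layer gene. Nuclei were chosen by raw UMI counts, a UMI being a molecular tag that stands for 1 captured RNA molecule. A nucleus had 300 to 8000 genes and at most 5% mitochondrial UMIs. It held 2 or more UMIs of Slc17a7, the vesicular glutamate transporter of cortical excitatory neurons, and at most 1 UMI of Gad1 and Gad2 together, the enzymes that make GABA. It held 3 or more UMIs of Cux2, and more of Cux2 than of Rorb, a gene of layer 4 and layer 5 neurons, and of Hs3st4, a gene of deep-layer neurons. This gave 4561 Cux2 nuclei among 112539 nuclei that passed the filters, out of 114118 barcodes. They were 4561 of the 20466 excitatory nuclei, and the 2 classes set beside them, cut the same way on Rorb and on Hs3st4, held 2887 and 9083 nuclei.

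The nuclei came from frozen cortex of 11 mice with 1 library each, so the mouse was the replicate. The sample labels give all 11 as female, whereas the methods of the study name male animals for RNA-seq. Xist, the RNA of the inactive X chromosome of females, stood at 834 to 1483 CPM, counts per 1000000 counts of the library, in Cux2 nuclei of the 11 libraries. Non-transgenic mice (ikbkb+/+, n = 4, 9.8 to 10.85 months old) carried no tau transgene. P301S mice (ikbkb+/+;P301S+, n = 3, 9.15 to 10.75 months) carried human tau with the P301S mutation under the mouse prion promoter, which is active in neurons. Knockout P301S mice (ikbkb-/-;P301S+, n = 2, 8.39 to 9.15 months) had in addition lost Ikbkb, the gene for the NF-κB kinase IKKβ, through a tamoxifen-driven Cre under Cx3cr1, a promoter of microglia. Active IKKβ P301S mice (ikbkbCA;P301S+, n = 2, 9.8 to 10.85 months) used the same Cre to switch on a permanently active IKKβ. The Cre driver is one of microglia, so the alleles were not aimed at the neurons described here. Tamoxifen was given in every group, and only the knockout and active IKKβ mice carried the Cre. The mice came from a floxed Ikbkb line and an active IKKβ line, which both contributed to the non-transgenic group and to the P301S group. The knockout mice were all of the former line and the active IKKβ mice all of the latter. Non-transgenic replicates 3 and 4 and P301S replicate 3 were of the active IKKβ line, and the other mice of these groups were of the floxed line. The active IKKβ mice thus had only P301S replicate 3 as a P301S control of their own line.

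Upper-layer excitatory neurons send axons within the cortex, to neighbouring areas and to the other hemisphere, and are among the cells that bear tau deposits in human tauopathies. Excitatory neurons that fire switch on a set of early genes within minutes, among them the transcription factors Fos and Egr1, and then effectors such as Bdnf and the scaffold Homer1. Calcium entry drives this through kinases and through CREB, a factor that binds the cAMP response element in the promoters of many of these genes.

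Each library gave 282 to 637 Cux2 nuclei with a median of 11260 to 17563 UMIs, and their summed counts ran from 3374125 to 8538847 UMIs. Of 112502 distinct barcode sequences, 1599 stood in more than 1 library. Any pair of libraries shared 15 to 45, at most 0.425% of the smaller one, and no nucleus was left out for it. Doublet calls marked 10.9% of the Cux2 nuclei, and these nuclei were kept, with the values without them given where a call changed. On the leading components of the summed counts P301S replicate 3 stood apart on the second, which held 17.4% of the variance. The first held 28.8%, and on it the mice of the floxed line scored from -9.30 to -0.765. Those of the active IKKβ line scored from 6.96 to 10.1, except non-transgenic replicate 3 at -1.13. The biological coefficient of variation of the sums was 13.4%.

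The Cux2 values that chose the nuclei were spread widely. The median nucleus held 9 UMIs of Cux2, with the minimum of the rule at 3 and the 95% quantile at 21. Of the Cux2 nuclei 65.1% held no UMI of Rorb (0) and 53.1% none of Hs3st4. At the threshold, 308 nuclei (6.75%) stood at 3 UMIs of Cux2, with a median depth of 11139 UMIs. Another 277 nuclei met every other condition with 2 UMIs of Cux2, and their median depth was 11364 UMIs. Nuclei with 3 or more UMIs of Cux2 were more often kept out by another layer gene, 2078 by Rorb and 2075 by Hs3st4. Within the Cux2 nuclei the summed level of Cux2 ran from 574 to 862 CPM, and that of Slc17a7 from 185 to 245 CPM.

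The label was read against other upper-layer genes, none of which chose the nuclei directly. These levels are a description, because the classes were cut by expression. Rasgrf2, a Ras exchange factor of layer 2 and layer 3 neurons, stood at 419 CPM on average over the mice, against 153 in Rorb nuclei and 80.7 in Hs3st4 nuclei. Otof, which encodes otoferlin, stood at 62.1 CPM against 8.41 and 10.6. Stard8 stood at 67.5 CPM against 24.6 and 7.29. The calcium buffer gene Calb1 stood at 48.3 CPM against 21.0 and 9.63, Lamp5 at 40.9 against 23.6 and 10.4, and Wfs1 at 15.98 against 3.22 and 2.97. These 6 genes were higher in Cux2 nuclei than in both other classes of the same mouse in 11 of 11 mice. Cux1, the close relative of Cux2, was less selective, at 638 CPM against 533 and 216, and was higher than in Rorb nuclei in 9 of 11 mice.

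**Figure D1:**
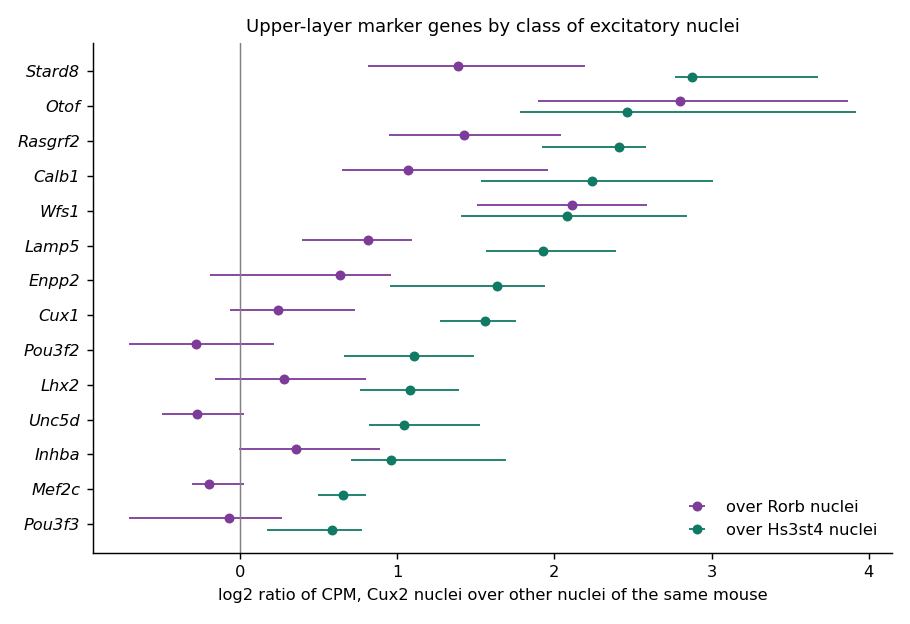
Ratio of CPM in Cux2 nuclei to CPM in Rorb nuclei (purple) or Hs3st4 nuclei (green) of the same mouse, on a log2 axis, for 14 upper-layer genes; points are medians over 11 mice and lines run from the lowest to the highest mouse. All 14 medians over Hs3st4 nuclei lie above 0, while over Rorb nuclei those of Pou3f2, Unc5d, Mef2c and Pou3f3 lie below it.

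Layer 6 genes averaged less than in Hs3st4 nuclei, though their summed level still ran from 161 to 323 CPM across mice. The most abundant, Zfpm2, averaged 128 CPM in Cux2 nuclei against 761. Foxp2, a layer 6 factor, averaged 16.7 CPM in Cux2 nuclei against 324 in Hs3st4 nuclei, and Syt6 averaged 2.26 against 76.7. Fezf2, the selector of layer 5 neurons that project below the cortex, averaged 0.805 CPM. Markers of near-projecting neurons summed to 44.3 to 343 CPM, and among them Tshz2 averaged 142 CPM against 248 in Hs3st4 nuclei. Genes of layer 4 and layer 5 varied more between mice. Il1rapl2 ran from 66.5 to 343 CPM across mice, and the summed layer 4 and layer 5 markers other than Rorb ran from 108 to 423 CPM, with knockout replicate 2 highest.

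Among genes with a mean of 50 CPM or more in either class and the same direction in all 11 mice, those furthest above Rorb nuclei were Otof, Ccbe1, Igfn1, Megf11 and Trpc6. Ccbe1 averaged 145 CPM against 23.0, and the cation channel gene Trpc6 156 CPM against 34.8. The genes furthest below Rorb nuclei included Pld5, at 37.5 CPM against 272, and the receptor phosphatase gene Ptprm, at 43.3 against 251. Above Hs3st4 nuclei the leaders were Stard8, Ccbe1, Gm765, Evc2 and Otof. Furthest below Hs3st4 nuclei were Gm10635, Syt6 and Foxp2. The kainate receptor gene Grik3 was low against both, at 33.3 CPM against 178 in Rorb nuclei and 501 in Hs3st4 nuclei.

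The first comparison between genotypes asked whether the share of these neurons changed with tau and with microglial IKKβ. Cux2 nuclei made up 3.62%, 4.07%, 6.88% and 4.09% of the nuclei in non-transgenic mice. In P301S mice they made up 2.90%, 2.31% and 2.68%. In knockout P301S mice the shares were 3.76% and 6.14%, and in active IKKβ P301S mice 4.57% and 4.82%. All 3 P301S mice lay below all 8 other mice. P301S mice averaged 2.63% ± 0.296 (SD, n = 3) against 4.66% ± 1.49 (n = 4) in non-transgenic mice. The difference of -2.04 points had an exact two-sided permutation p of 0.0571, where 0.0286 is the smallest that 4 mice against 3 allow, and an adjusted permutation p of 0.133 over 4 contrasts. Knockout mice exceeded P301S mice by 2.32 points and active IKKβ mice by 2.07 points. The exact permutation p was 0.1 for both, which is the smallest possible for 3 mice against 2, and the P301S mice are shared by these contrasts. The 7 transgene carriers together differed from non-transgenic mice by -0.782 points (exact permutation p = 0.397). The lower share in P301S mice was not particular to Cux2 nuclei. Excitatory nuclei as a whole were 1785 of 11156, 1297 of 12208 and 1490 of 10898 nuclei in P301S mice. That was a smaller part than in any other mouse, the lowest of which had 1643 of 9641 (non-transgenic replicate 4). The same held for Hs3st4 nuclei, with 814, 547 and 690 in P301S mice and 733 in that mouse, but not for Rorb nuclei.

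Cux2 nuclei were also counted as a part of the excitatory nuclei. Their share averaged 22.6% ± 3.21 (n = 4) in non-transgenic, 19.8% ± 1.83 (n = 3) in P301S, 22.6% ± 2.98 (n = 2) in knockout and 24.0% ± 3.22 (n = 2) in active IKKβ mice. The groups overlapped in each of the 4 contrasts, with exact permutation p-values of 0.257 for P301S, 0.3 for knockout, 0.3 for active IKKβ and 0.676 for all carriers. A share counts the nuclei recovered, so fewer such neurons and fewer of their nuclei recovered cannot be told apart.

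Cux2 nuclei of P301S mice were also shallower. Their medians were 11500, 11260 and 11556 UMIs per nucleus, under those of all 4 non-transgenic mice, which ran from 12466 to 13713. The means differed by -1590.5 UMIs, with an exact permutation p of 0.0286, the smallest possible, and an adjusted permutation p of 0.114. Knockout mice stood at 15377 and 17563 UMIs and active IKKβ mice at 13567 and 14846, all above the P301S mice (exact permutation p = 0.1 for both contrasts, the smallest possible). The rule counts UMIs of Cux2 and Slc17a7 and so depends on depth. Nuclei of 5000 or more UMIs were thinned to 5000 before the rule was applied, and shallower nuclei were left out. This took out 15178 of 16077 nuclei with oligodendrocyte markers, so the denominator changed as well. On it the share differed by -0.586 points between P301S and non-transgenic mice (exact permutation p = 0.343). That value cannot be set directly against the -2.04 points without thinning. The knockout difference was then 0.357 points (exact permutation p = 0.5) and that of active IKKβ mice 0.893 (exact permutation p = 0.2). Over 3 alternatives, thinning among them, the P301S difference in the share of excitatory nuclei ran from -3.58 to -2.35 points, against -2.79 in the main count. Single libraries mattered too. Without non-transgenic replicate 3, which had the highest share, the P301S difference was -1.30 points and that of all carriers -0.044. Without knockout replicate 2 the knockout difference was 1.13 points, and without knockout replicate 1 it was 3.51.

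**Figure D2:**
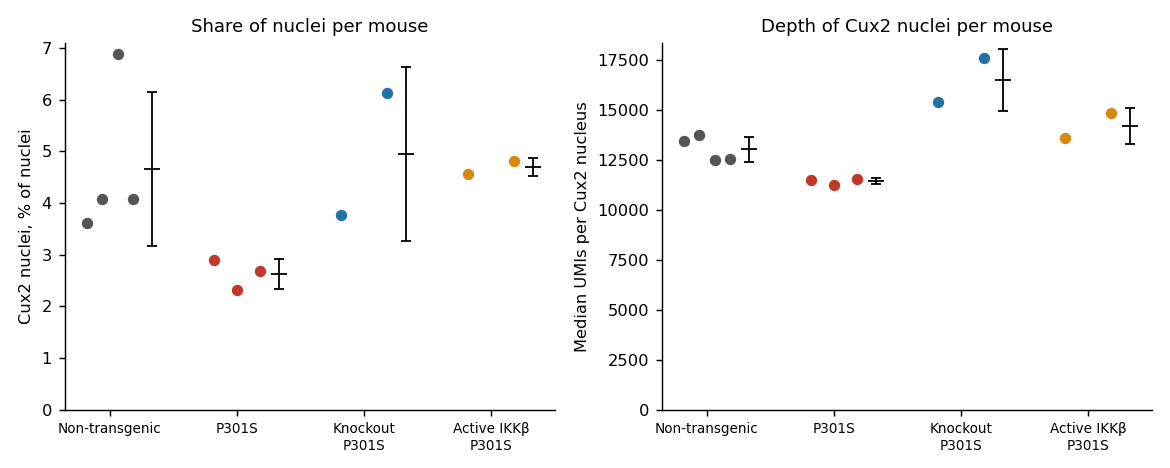
Left, Cux2 nuclei as a percent of the nuclei of each mouse; right, the median UMIs per Cux2 nucleus. Points are mice, and bars give the mean and SD of each group. The P301S mice sit at 2.31% to 2.90% and at 11260 to 11556 UMIs, below every other mouse in both panels.

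Summed counts per mouse were then compared gene by gene with edgeR's quasi-likelihood test over 13545 genes, and calls required a log2 fold change over 0.1 and an adjusted p (Benjamini-Hochberg) under 0.05. Only 1 gene was called in P301S mice against non-transgenic mice (0.00738%). Before adjustment 540 genes (3.99%) passed 0.05. In knockout against P301S mice edgeR called 0 genes (0.0%) and DESeq2 called 2 (0.0148%), and 873 (6.45%) passed 0.05 before adjustment by edgeR. In active IKKβ against P301S mice edgeR called 0 (0.0%) and DESeq2 called 1 (0.00738%), and 701 (5.18%) passed 0.05 before adjustment by edgeR. All 7 carriers against non-transgenic mice gave 1 call by edgeR (0.00738%) and 9 by DESeq2 (0.0665%), and 707 (5.22%) passed 0.05 before adjustment by edgeR. Without the filter on low counts edgeR called 96, 121, 184 and 134 genes in the same order. Where no other setting is named, calls and adjusted p of edgeR below are those with this filter, all members and libraries, and no covariate or block. The P301S contrast, the knockout contrast and the active IKKβ contrast all use the 3 P301S mice, so their values are not independent.

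The called gene was Gm43049 (ENSMUSG00000105777), a long noncoding RNA on the minus strand of chromosome 3 at 140692038 to 140760704 (GRCm38). It had 0 UMIs in all 4 non-transgenic libraries. P301S mice held 45, 61 and 28 UMIs, or 12.01, 18.4 and 7.32 CPM. Knockout mice stood at 8.60 and 8.23 CPM and active IKKβ mice at 10.9 and 9.13 CPM. Every carrier held the RNA in its Cux2 nuclei and no control did. Against the floor of 3 counts over the non-transgenic group, it was at least 99.4-fold higher in P301S mice (edgeR adjusted p = 0.000783) and at least 80.9-fold higher over all carriers, whose libraries held 411 UMIs (edgeR adjusted p = 0.000515). It did not differ beyond the test between knockout and P301S mice (log2 fold change -0.57 ± 0.32, SE) or between active IKKβ and P301S mice (-0.32 ± 0.31). Other nuclei of the carriers held the RNA as well. In carriers it stood at 5.59 to 13.8 CPM in Rorb nuclei, 6.998 to 12.8 in Hs3st4 nuclei, 6.11 to 13.6 in inhibitory nuclei and 1.51 to 4.98 in oligodendrocyte marker nuclei, while the non-transgenic mice held 5 UMIs in Hs3st4 nuclei and 2 in inhibitory nuclei.

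A neighbouring noncoding gene had the same pattern at a lower count. 4930590L14Rik, on the plus strand at 140951876 to 140953247, also had 0 UMIs in the non-transgenic libraries and 67 UMIs in the carriers, with 3 to 16 in each. It was at least 13.2-fold higher over all carriers. It was called by DESeq2 (adjusted p = 0.00251) and not by edgeR (adjusted p = 0.164). Every carrier also held it in Rorb, Hs3st4, inhibitory and oligodendrocyte marker nuclei, where the non-transgenic mice held only 1 UMI, in Hs3st4 nuclei. Of the other genes tested, 3 lay within 1 Mb of Gm43049, namely 4930590L14Rik, Stpg2 and Unc5c. Unc5c, a netrin receptor gene of axon guidance, stood at 470 ± 70.8 CPM in the controls, the non-transgenic mice, and 356 ± 39.3 in carriers (-0.41 ± 0.10, edgeR adjusted p = 0.591). Further genes of chromosome 3 stood higher in every carrier than in every non-transgenic mouse without a call by edgeR. Alpk1 was one of the genes listed singly, and Rwdd3 and Egf were picked after their values were seen. Rwdd3, a regulator of SUMO conjugation at 121155398 to 121171695, ran from 4.85 to 6.43 CPM in non-transgenic mice and from 8.64 to 12.6 in carriers (0.87 ± 0.14, edgeR adjusted p = 0.164, with DESeq2 adjusted p = 0.0295). Alpk1, an innate immune kinase at 127670310 to 127780527, ran from 5.997 to 9.32 CPM and from 10.3 to 22.0 (1.06 ± 0.19, edgeR adjusted p = 0.167, with DESeq2 adjusted p = 0.00263). edgeR also called Alpk1 with line as a covariate, with doublets left out, and with breeding line and sample title number together as a block. That block contains line, so it is not separate from the line covariate. Without the filter on low counts edgeR called Alpk1, Rwdd3, 4930590L14Rik and Unc5c. Egf, at 129677565 to 129755316, ran from 5.97 to 6.84 and from 8.36 to 11.8 CPM (0.61 ± 0.14, edgeR adjusted p = 0.519). Of 159 other genes tested within 20 Mb of Gm43049, 8 had carriers and controls that did not overlap, the 5 above and Dnttip2, Gm42997 and Gm5105, which were lower in carriers. Over all 13545 genes this held for 46 higher and 41 lower (0.642%). The tau transgene and any stretch of chromosome inherited with it are in the same 7 mice, and these cannot be told apart.

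**Figure D3:**
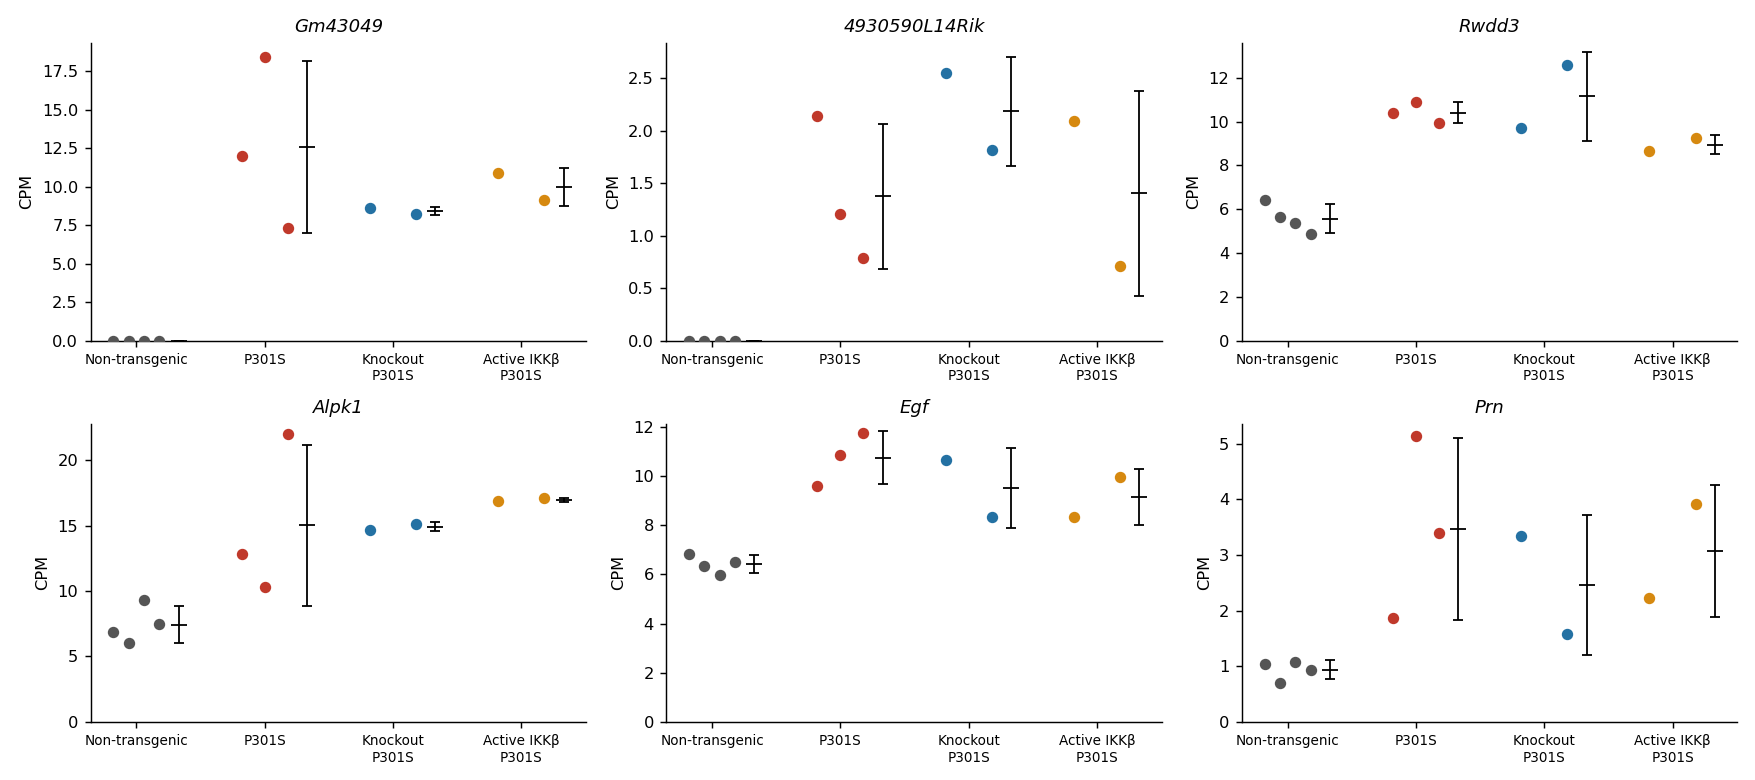
CPM in the summed Cux2 nuclei of each mouse for 5 genes of chromosome 3 and for Prn of chromosome 2; points are mice, and bars give the mean and SD of each group. Gm43049 and 4930590L14Rik are at 0 in the 4 non-transgenic mice, and the other 4 genes are higher in each of the 7 carriers than in any non-transgenic mouse.

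The genes that bear on the transgene and the alleles were read in every library. Mapt, the mouse gene for tau on chromosome 11, stood at 567 ± 59.5 CPM in controls and 628 ± 46.1 in carriers (0.16 ± 0.08, edgeR adjusted p = 0.919). The human tau RNA was not counted under a separate gene. Prnp, the prion protein gene whose promoter drives the transgene, had 0 to 4 UMIs per library and was not tested. Prn, a transcript annotated over the same stretch of chromosome 2 (131909957 to 131956130), stood at 1.04, 0.706, 1.08 and 0.932 CPM in non-transgenic mice. Carriers stood at 1.87, 5.13 and 3.40 CPM (P301S), 3.35 and 1.57 (knockout), and 2.23 and 3.91 (active IKKβ). No carrier overlapped the controls, but the gene was not called (1.62 ± 0.37, edgeR adjusted p = 0.573), which 1 of 9 alternatives changed. Reads of Prn and Prnp cannot be told apart where they overlap. Ikbkb was near 45.3 ± 2.12 CPM in non-transgenic Cux2 nuclei, and its log2 fold change was -0.09 ± 0.13 in knockout and 0.08 ± 0.13 in active IKKβ against P301S mice, neither called. Bsn, a presynaptic scaffold gene, stood at 358 ± 54.7 CPM and at 394 ± 40.3 in carriers (0.14 ± 0.11), also not called.

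Most genes induced by neuronal activity had lower levels in carriers, although edgeR called none (0) of them with the filter on low counts and all libraries. Of the 27 listed genes 26 passed the filter on low counts, and Ier2 did not. In all carriers against non-transgenic mice 24 of the 26 had a log2 fold change below 0, where 50.2% of all genes did, and the median was -0.41 against -0.001 over all genes tested. Of the 26 genes 13 had an unadjusted p under 0.05, or 50%, each of them lower, against the 5.22% over all genes. DESeq2 called 1 of them, Egr1, among its 9 calls over all genes. Without the filter on low counts edgeR called 10 of them, all lower, among 96 lower genes (0.403%). edgeR also called Egr1 with breeding line and title number together as a block, and Egr1 and Junb without knockout replicate 2. In 4 of them, Egr1, Egr4, Btg2 and Dusp6, every carrier lay under every non-transgenic mouse, which held for 41 of all genes (0.303%). The summed level of the list, with Sorcs3 its most abundant member, overlapped. It ran from 1644.5 CPM (replicate 1) to 2289 in non-transgenic mice and from 1547 to 1809 in carriers. The members were read in the same mice and can rise and fall together, so counts of members are not independent.

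Among the transcription factors, Egr1 (chromosome 18) stood at 22.0, 41.6, 35.0 and 43.6 CPM in non-transgenic mice. P301S mice stood at 18.4, 20.5 and 19.9 CPM, knockout mice at 7.17 and 20.3, and active IKKβ mice at 13.8 and 16.5. All carriers lay under the lowest control, and the fold change was -1.14 ± 0.22 (edgeR adjusted p = 0.253, with DESeq2 adjusted p = 0.00327). Its relative Egr4 (chromosome 6) stood at 7.88, 7.23, 5.97 and 6.90 CPM in non-transgenic mice, at 5.34, 4.53 and 5.75 in P301S, 1.75 and 2.79 in knockout, and 3.48 and 3.91 in active IKKβ mice. This was -0.96 ± 0.17 over all carriers (edgeR adjusted p = 0.167), from 11 to 50 UMIs per library. The 4 groups did not overlap, and the knockout mice were lowest. Lower values without overlap were found for 2.41% of all genes in P301S against non-transgenic mice, 10.6% in knockout and 9.86% in active IKKβ against P301S mice. Npas4, an activity-dependent factor that shapes inhibitory input, ran from 17.0 to 35.8 CPM in non-transgenic mice and from 4.46 to 17.9 in carriers (-1.01 ± 0.25). Junb ran from 13.1 to 30.9 and from 2.39 to 15.2 CPM (-1.03 ± 0.30), and Fos from 3.32 to 10.2 and from 1.12 to 5.87 CPM (-1.03 ± 0.30). For these 3 genes carriers and controls overlapped, and the edgeR adjusted p was 0.586 for Npas4 and 0.919 for the others. All 3 were among the genes called without the filter on low counts.

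The list also holds brakes on growth and signalling. Btg2 (chromosome 1), an antiproliferative factor induced early after stimulation, stood at 13.5, 16.8, 12.4 and 13.98 CPM in non-transgenic mice. It stood at 10.9, 9.06 and 11.2 CPM in P301S, 5.26 and 8.72 in knockout, and 7.80 and 9.96 in active IKKβ mice (-0.69 ± 0.15, edgeR adjusted p = 0.451). Dusp6 (chromosome 10), a phosphatase that turns off ERK, stood at 9.33, 11.995, 10.3 and 13.2 CPM in non-transgenic mice. It stood at 8.01, 8.16 and 8.63 in P301S, 5.42 and 7.63 in knockout, and 6.13 and 6.99 in active IKKβ mice (-0.65 ± 0.14, edgeR adjusted p = 0.451). For both genes the controls did not overlap the carriers. Dusp1 had a log2 fold change of -0.52 ± 0.20 and the stress gene Gadd45b one of -0.70 ± 0.27, with overlap and no call.

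Among effectors, the dendritic mRNA Arc stood at 17.3 ± 6.34 CPM in controls and 11.6 ± 3.88 in carriers (-0.61 ± 0.27). The growth factor gene Bdnf stood at 61.2 ± 8.36 and 48.5 ± 11.4 CPM (-0.40 ± 0.13). Pcsk1, a protease that matures neuropeptides, stood at 50.5 ± 16.2 and 32.4 ± 7.33 CPM (-0.66 ± 0.20), and Ptgs2, the inducible cyclooxygenase, at 10.8 ± 3.71 and 7.91 ± 3.21 CPM (-0.54 ± 0.24, and -0.28 without non-transgenic replicate 2). None of these was called by DESeq2, or by edgeR with the filter on low counts. The most abundant members were Sorcs3 at 943 ± 173 and 891 ± 88.8 CPM, and Homer1 at 442 ± 103 and 383 ± 52.9, and among the nuclear receptors Nr4a1 stood at 74.6 ± 21.6 and 63.4 ± 9.64. Nr4a2 and Nr4a3 were the 2 members not below 0, at 30.2 ± 14.02 and 31.0 ± 14.5 CPM and at 22.2 ± 9.13 and 25.3 ± 11.5 CPM.

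**Figure D4:**
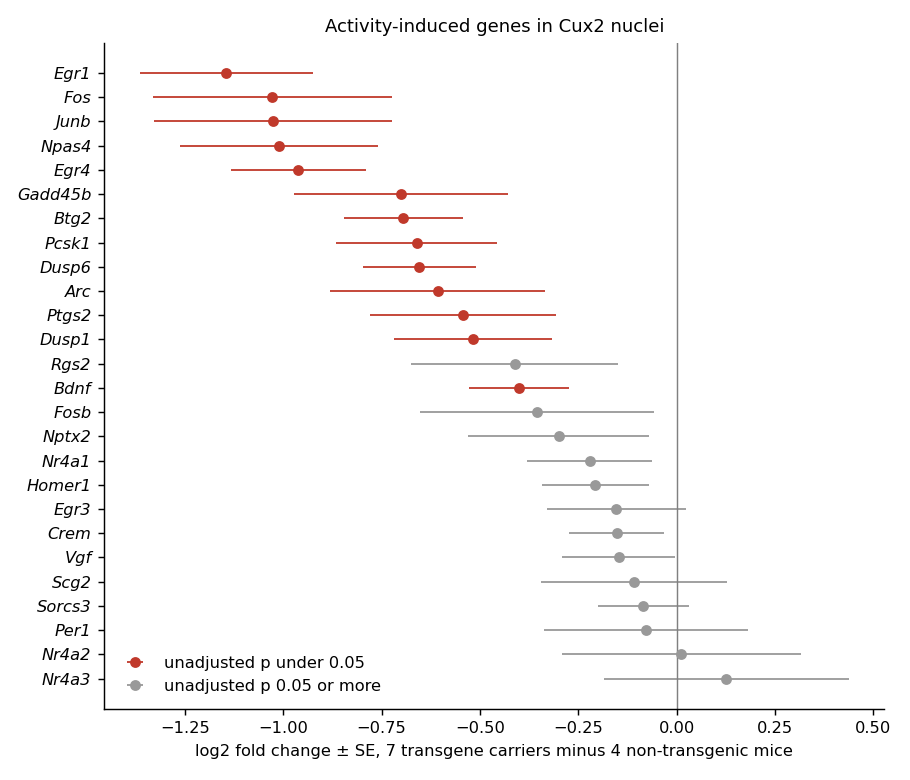
Log2 fold change of 26 activity-induced genes in Cux2 nuclei, 7 carriers minus 4 non-transgenic mice, with bars of 1 standard error; red points have an unadjusted p under 0.05. The points run from -1.14 for Egr1 to 0.13 for Nr4a3, and 24 of 26 lie left of 0.

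**Figure D5:**
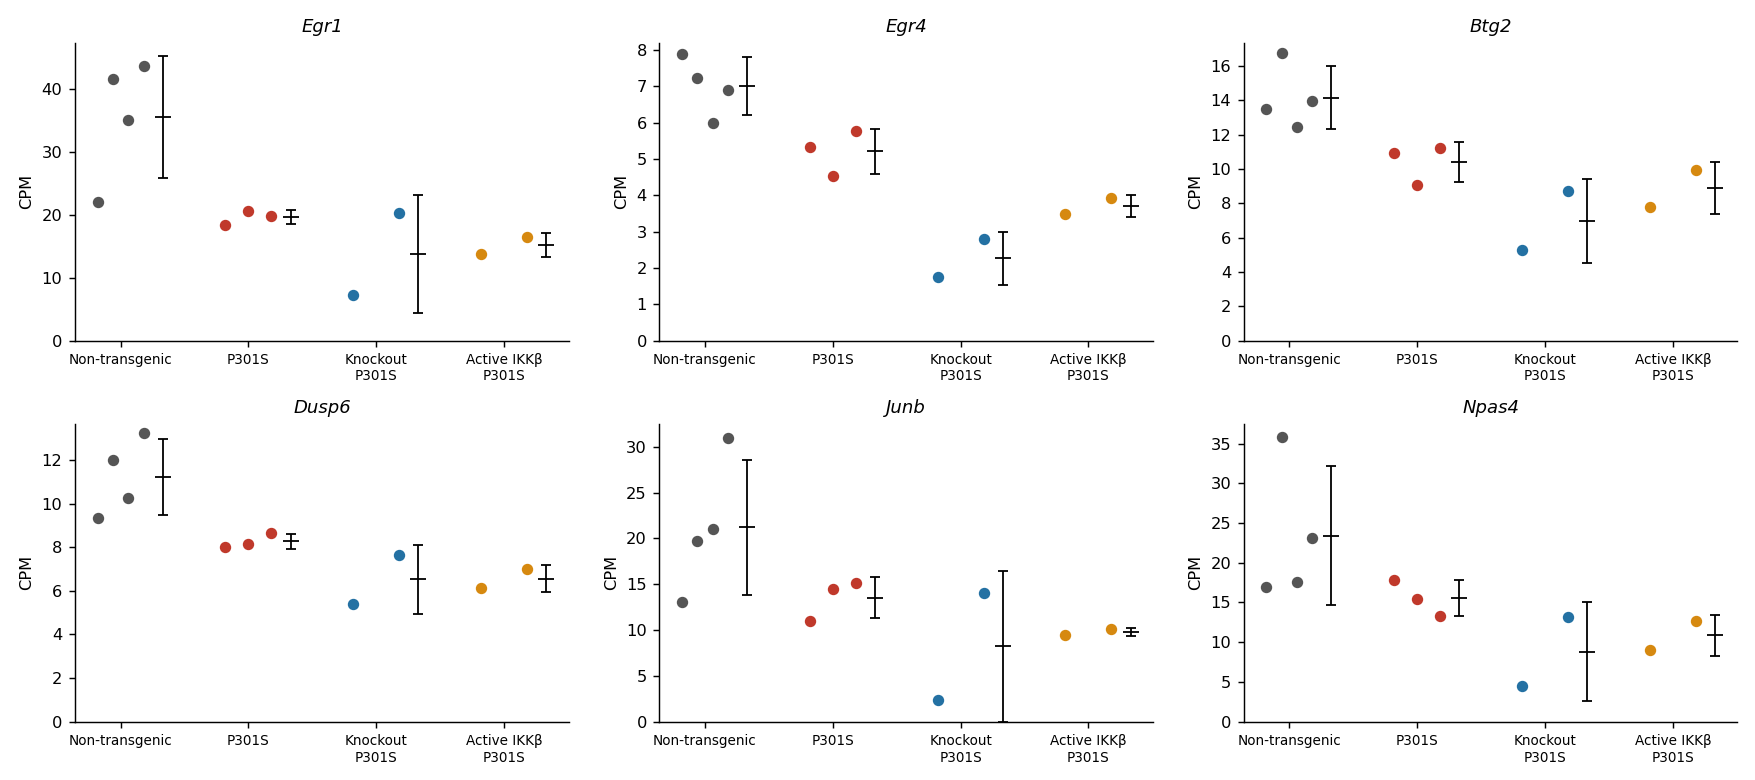
CPM of 6 activity-induced genes in the summed Cux2 nuclei of each mouse; points are mice, and bars give the mean and SD of each group. For Egr1, Egr4, Btg2 and Dusp6 the 7 carriers lie under all 4 non-transgenic mice, while Junb and Npas4 overlap, and knockout replicate 1 is the lowest mouse in all 6 panels.

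Each carrier group was then read alone. In P301S against non-transgenic mice 21 of 26 genes lay below 0 (median -0.23), with 4 at an unadjusted p under 0.05, namely Egr1 (-0.86 ± 0.29), Pcsk1 (-0.65 ± 0.26), Dusp6 (-0.44 ± 0.19) and Btg2 (-0.43 ± 0.20). Without the filter on low counts edgeR called Egr1 and Pcsk1 of them, among 53 lower genes (0.223%). In knockout against P301S mice 23 of 26 lay below 0 (median -0.45), and 5 had an unadjusted p under 0.05 (19.2%, against 6.45% of all genes), all lower. In active IKKβ against P301S mice 20 of 26 lay below 0 (median -0.29), and 1 had an unadjusted p under 0.05 (3.85%, against 5.18% of all genes). The last 2 contrasts share the P301S mice. Knockout replicate 1 was the lowest mouse for many members, and without it the knockout median was -0.14 and that of all carriers -0.37, with 26 of 26 members below 0. Without knockout replicate 2 the knockout median was -0.80. Without P301S replicate 3 the P301S median was -0.39 and the active IKKβ median -0.17. Without any 1 library the median over all carriers lay between -0.60 and -0.32, against a spread between libraries of a group of 0.204 (SD). It was -0.39 with age and -0.38 with breeding line as a covariate, and the knockout mice were among the youngest. RNA of these genes was present in nuclei that should hold less of it. Egr1 averaged 14.9 CPM in oligodendrocyte marker nuclei against 23.4 in Cux2 nuclei, Egr4 1.80 against 5.03, Btg2 4.63 against 10.8 and Dusp6 3.73 against 8.67. The part of free RNA in the lower levels was not tested.

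Promoters of the activity genes whose carriers and controls did not overlap are shown as a description. The sequences are those of RefSeq on GRCm38.p6, from 250 bases before the start to 50 after it, read 5′ to 3′ on the strand of the gene. That of Egr1 is not shown. Capitals mark the short core of the cAMP response element, TGACG on either strand, and the full element TGACGTCA holds it on both strands with an overlap. Egr4 is chr6:85513540-85513839 on the minus strand, Btg2 chr1:134079106-134079405 on the minus strand, and Dusp6 chr10:99262981-99263280 on the plus strand.
Egr4: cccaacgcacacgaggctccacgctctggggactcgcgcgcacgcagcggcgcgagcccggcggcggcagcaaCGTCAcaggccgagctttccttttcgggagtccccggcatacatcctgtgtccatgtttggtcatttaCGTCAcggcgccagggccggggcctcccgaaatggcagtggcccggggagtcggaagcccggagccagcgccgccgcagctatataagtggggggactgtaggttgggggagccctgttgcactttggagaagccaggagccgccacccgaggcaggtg
Btg2: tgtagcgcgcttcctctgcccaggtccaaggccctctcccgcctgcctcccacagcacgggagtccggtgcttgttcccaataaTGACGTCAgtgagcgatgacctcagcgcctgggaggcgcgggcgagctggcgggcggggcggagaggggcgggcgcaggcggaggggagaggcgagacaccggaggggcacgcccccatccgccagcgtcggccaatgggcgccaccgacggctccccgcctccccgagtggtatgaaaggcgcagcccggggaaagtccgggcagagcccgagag
Dusp6: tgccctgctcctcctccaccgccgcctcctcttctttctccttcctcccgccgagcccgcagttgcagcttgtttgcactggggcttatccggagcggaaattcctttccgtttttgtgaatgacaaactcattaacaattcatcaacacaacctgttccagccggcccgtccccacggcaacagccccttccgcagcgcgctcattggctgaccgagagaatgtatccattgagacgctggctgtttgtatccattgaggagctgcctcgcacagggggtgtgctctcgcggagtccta
Egr4 held 2 cores, the first 177 bases before the start. Btg2 held the full element, 166 bases before the start, and Dusp6 held neither. Of the 27 listed genes 20 were matched by symbol in the promoter table used here, with 28 promoters in all, and Arc, Crem, Egr1, Egr3, Ier2, Nptx2 and Vgf were not matched. A core stood in 18 of the 28 promoters (64.3%), against 20.8% of 32851 promoters of the same length, and the full element in 4 (14.3%), against 1.79%. Nr4a2 and Nr4a3, the 2 members not below 0, held 4 cores each, as did Nr4a1, which was lower. Gadd45b, also lower, held 0. The share with a core describes a list chosen for induction by activity. Its part in the lower levels was not tested. A match of letters does not show that a factor binds.

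The same genes were read in the other excitatory classes. In Rorb nuclei 25 of 26 tested members lay below 0 in carriers (median -0.43), and in Hs3st4 nuclei 22 of 27 (median -0.35), with 0 called in either. The difference between classes was tested within mice. The log2 fold change of Egr1 in Cux2 nuclei minus that in Hs3st4 nuclei was -0.46 ± 0.15 (edgeR adjusted p = 0.724), and that of Egr4 was -0.47 ± 0.24 (edgeR adjusted p = 0.889). The median difference over the list was -0.083 against Hs3st4 nuclei and 0.080 against Rorb nuclei. No difference between classes was called for any list member (0) with the filter on low counts. Without it 3 members, Bdnf, Egr1 and Pcsk1, were called for all carriers against Hs3st4 nuclei, among 155 genes (0.613%). Sorcs3 was then called for active IKKβ against Rorb nuclei, among 100 genes (0.408%).

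Over all genes, 5 of the 6 tests of a difference in effect between classes gave no call. None (0) of 13322 genes was called against Rorb nuclei for knockout (0.0%), active IKKβ (0.0%) or all carriers (0.0%), with 645, 761 and 529 genes at an unadjusted p under 0.05 by edgeR. Against Hs3st4 nuclei none (0) of 14979 was called for knockout (0.0%) or active IKKβ (0.0%), with 556 and 731 at an unadjusted p under 0.05. DESeq2 was not run on these tests. For all carriers 1 gene was called (0.00668%), with 834 at an unadjusted p under 0.05. This was the noncoding RNA 9330185C12Rik on chromosome 1 (113891385 to 113964134). In Cux2 nuclei it stood at 40.4, 9.70, 17.7 and 2.05 CPM in non-transgenic mice. It stood at 4.54, 2.11 and 0.523 in P301S, 2.87 and 18.04 in knockout, and 0.418 and 1.19 in active IKKβ mice. The log2 fold change of all carriers against non-transgenic mice in Cux2 nuclei minus that in Hs3st4 nuclei was -2.94 ± 0.40 (edgeR adjusted p = 0.0261), but the mice overlapped widely within Cux2 nuclei. The call was lost at a minimum count of 50, with doublets left out, in thinned counts, in nuclei with fewer glial UMIs, and without any 1 of 6 libraries (non-transgenic replicates 1, 2 and 3, P301S replicate 2, knockout replicate 2 and active IKKβ replicate 1).

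Glutamate, release and channel gene groups had medians near that of all genes, which was -0.001, and the GABA receptor and adhesion groups had lower ones. In all carriers the 42 tested glutamate receptor and scaffold genes had a median of -0.005 with 21 below 0, the 33 transmitter release genes -0.034 with 19 below 0, and the 14 GABA receptor genes -0.11 with 9 below 0. Of the GABA receptor genes 2 had an unadjusted p under 0.05 (14.3%, against 5.22% of all genes), both lower. Examples are the scaffold gene Dlg2 at 7381 ± 669 CPM in controls and 6683 ± 882 in carriers, and the calcium sensor gene Syt1 at 4736 ± 478 and 4362 ± 314. Sodium and calcium channels (20 genes, median 0.027) and potassium and HCN channels (26 genes, -0.003) had medians near 0 as well. Of the adhesion and guidance genes 34 of 48 lay below 0 in all carriers, against 50.2% of all genes, with a median of -0.11. Of them 7 had an unadjusted p under 0.05, all lower. In P301S against non-transgenic mice 29 of 48 lay below 0 (median -0.018), and the GABA receptor median was 0.0005. Against P301S mice 26 of the 48 adhesion and guidance genes lay below 0 in knockout (median -0.038) and 35 in active IKKβ mice (median -0.12). With the filter on low counts, all members and libraries, and no covariate or block, no list (0) held a called gene by edgeR, while DESeq2 called Egr1 of the activity list and Alpk1, one of the genes listed singly.

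Groups that bear on tau and on protein turnover also had medians near 0. Kinases and microtubule genes of the tau list had a median of 0.047 over 25 genes, chaperone and stress genes -0.043 over 20, and autophagy and lysosome genes 0.016 over 21. Respiratory chain genes had a median of -0.045 over 10 genes. NF-κB genes had a median of -0.046 over 12 genes. In active IKKβ against P301S mice 11 of the 12 lay above 0, where 50.6% of all genes lay below it. Their median was 0.11, with none (0) at an unadjusted p under 0.05. Their summed level overlapped, at 324 to 359 CPM in active IKKβ and 275 to 336 in P301S mice. The sums went with breeding line. Mice of the active IKKβ line without Cre stood at 327 and 377 CPM (non-transgenic replicates 3 and 4) and 336 (P301S replicate 3). All mice of the floxed Ikbkb line stood at 275 to 319 CPM. The part of line in the sign of these genes was not tested. Interferon and antigen presentation genes had a median of 0.13 over the 9 that could be tested, and 2 of them had an unadjusted p under 0.05, both higher. In P301S mice their median was 0.21, and 3 of the 9 had an unadjusted p under 0.05 (33.3%, against 3.99% of all genes), all higher. Against P301S mice 2 of the 9 were lower at an unadjusted p under 0.05 in knockout (22.2%, against 6.45% of all genes) and 2 in active IKKβ mice (22.2%, against 5.18%). Beside this, 7 of the 8 microglia markers lay above 0 in P301S mice (median 0.24).

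Heparan sulfate enzymes (18 genes, median -0.015), neuropeptides (3 genes, 0.18), cytokine receptors (17 genes, 0.018) and long noncoding RNAs (8 genes, 0.052) completed the lists. The upper-layer markers themselves had a median of -0.027 over 15 genes. Of the long noncoding RNAs 7 of 8 lay above 0 in knockout against P301S mice, where 50.8% of all genes lay below 0. In that contrast 4 had an unadjusted p under 0.05 (50%, against 6.45% of all genes), 1 of them lower. Snhg11, the neuronal host of small nucleolar RNAs, had a log2 fold change of 0.48 ± 0.16 there (edgeR adjusted p = 0.722). Of 13 alternatives 1 changed whether it was called.

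Markers of other cells were read beside these groups. The 7 oligodendrocyte markers all lay above 0 in carriers (median 0.36), and their summed level ran from 115 to 294 CPM in non-transgenic mice and from 162 to 292 in carriers, against 12408 to 15392 in oligodendrocyte marker nuclei. The 8 microglia markers had a median of 0.32, with sums of 33.3 to 43.3 and 39.8 to 50.1 CPM, and Csf1r averaged 2.04 CPM. Astrocyte markers had a median of -0.033, precursor markers -0.10, vascular markers 0.044, inhibitory neuron markers -0.080, striatal markers 0.11 and hippocampal markers -0.082. Striatal markers had the highest sums of these, 1029 to 2272 CPM over all mice, with Pde10a their most abundant gene. They ran from 1029 to 1109 CPM in P301S and from 1535.5 to 1919 in active IKKβ mice. Precursor markers summed to 206 to 497 CPM and astrocyte markers to 204 to 289. No listed marker was at 0 in all libraries (0 in each list). Layer 4 and layer 5 markers had a median of -0.37 in carriers and 0.72 in knockout against P301S mice, and near-projecting markers -0.64 and 0.68. The knockout mice differed in the former, whose sum was 159 CPM in replicate 1, within the 144 to 186 of P301S mice, and 423 in replicate 2. With nuclei of 2 or more UMIs over 16 defining glial and vascular genes left out, an alternative chosen after the data were seen, Gm43049 was called again and the activity median was -0.40. The part of other cells' RNA in the remaining results was not tested.

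Further genes called by DESeq2, and by edgeR only in other settings, were looked up after their values were seen. Banf2 (chromosome 2) stood at 36.0 to 46.2 CPM in non-transgenic mice, 27.5 to 31.4 in P301S and 35.4 to 44.2 in knockout mice. It stood at 6.83 and 13.4 CPM in the active IKKβ mice, below all other mice (-1.53 ± 0.24 against P301S mice, edgeR adjusted p = 0.232, with DESeq2 adjusted p = 1.59e-05). DESeq2 also called Banf2 in all carriers against non-transgenic mice (adjusted p = 0.000759), as edgeR did in thinned counts and, in both contrasts, without active IKKβ replicate 2. The collagen gene Col23a1 and the cation channel gene Trpm3 were lowest in the same 2 mice. Col23a1 stood at 13.7 and 9.48 CPM (-1.12 ± 0.33) and Trpm3 at 166 and 229 CPM (-0.94 ± 0.21). Neither edgeR in the main fit nor DESeq2 called them in active IKKβ against P301S mice. There 1 of 12 alternatives for Col23a1 and 1 of 13 for Trpm3 changed this. DESeq2 called both lower in all carriers (adjusted p = 0.00327 for Col23a1 and 0.0152 for Trpm3), where edgeR did not (adjusted p = 0.253 and 0.353). Ikzf1, a factor of blood and microglial cells, held 1 to 4 UMIs in non-transgenic libraries and 1 to 31 in carriers, and P301S replicate 1 overlapped the controls (2.43 ± 0.48, edgeR adjusted p = 0.27, with DESeq2 adjusted p = 0.0295). edgeR called Ikzf1 without P301S replicate 1, and all 4 genes in all carriers without the filter on low counts.

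In the knockout contrast DESeq2 called 2 antisense RNAs. Pcsk2os2 stood at 25.1, 27.5 and 25.6 CPM in P301S mice and 11.5 and 9.69 in knockout mice (-1.30 ± 0.23, edgeR adjusted p = 0.472), and Sorbs2os at 144, 144 and 145 against 81.3 and 75.0 (-0.89 ± 0.17, edgeR adjusted p = 0.472). Non-transgenic mice stood at 18.2 to 25.9 CPM for Pcsk2os2 and at 80.7 to 122 for Sorbs2os, where replicate 4 stood at the level of the knockout mice and all 4 lay under the P301S mice. Both lie antisense to a protein-coding gene, and no strand setting is given in the sources used here, so reads of the partners may not be separated. Gm43948 (-0.88 ± 0.16), the RNA-binding gene Mex3c (-0.99 ± 0.18) and the neurotrophic receptor gene Gfra2 (0.66 ± 0.13) had the same edgeR adjusted p of 0.472. Without the filter on low counts edgeR called all 5 in knockout mice, and with breeding line and title number together as a block it called Sorbs2os.

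In 96 higher and 101 lower genes of all those tested (1.45%) the P301S mice did not overlap the other 8. What share chance would give was not worked out. Srf, Cox8a and Oprm1 are 3 of them. Srf, which encodes serum response factor, a partner in the induction of early genes, stood at 3.74, 5.13 and 4.71 CPM in P301S mice and at 6.71 to 8.11 in non-transgenic mice (-0.72 ± 0.20). It was higher by 0.999 ± 0.22 in knockout and by 0.74 ± 0.22 in active IKKβ mice. Cox8a, a subunit of cytochrome c oxidase, stood at 9.07, 7.25 and 9.15 CPM in P301S mice and 13.6 to 14.5 in non-transgenic mice (-0.69 ± 0.15), with 0.54 ± 0.17 and 0.82 ± 0.16 in the other contrasts. The μ-opioid receptor gene Oprm1 went the other way, at 40.0, 44.7 and 41.8 CPM in P301S mice and 25.0 to 36.7 in non-transgenic mice (0.45 ± 0.13), with -0.71 ± 0.15 in knockout and -0.76 ± 0.15 in active IKKβ mice. Rspo3, a Wnt agonist, had a log2 fold change of -0.83 ± 0.18 in active IKKβ mice, and for it P301S and non-transgenic mice overlapped. None of the 4 was called by edgeR with the filter on low counts (adjusted p of 0.597 to 0.998). Without it Oprm1 was called in knockout and active IKKβ mice, and Cox8a and Rspo3 in active IKKβ mice. The P301S mice are the shared control of the last 2 contrasts and were also the shallowest, and the part of depth was not tested. Srf, Cox8a and Oprm1 were taken from genes in which the P301S mice lie apart. Their opposite signs between contrasts follow from that choice.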

How the data were processed

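Nuclei of frozen mouse cortex were profiled with droplet 3′ chemistry, 1 library per mouse. The deposited values are raw UMI counts per gene and barcode, which the authors made with Cell Ranger 3.1.0 against mm10, per the submitters' processing notes. No column of another series was used. The nuclei and gene lists were chosen with earlier results of these data known.

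Members were found on the raw counts by the rule given above, and summed per library. Genes kept by filterByExpr of edgeR 4.0.16 (minimum count 10) were scaled by TMM and tested with glmQLFit and glmQLFTest over all 4 groups in R 4.3.3, and DESeq2 1.42.0 was the alternative. Oligodendrocyte marker nuclei held 3 or more UMIs of Mobp, Mog and Mag together, none of Slc17a7 and at most 1 of Gad1 and Gad2. Levels in other classes are CPM without TMM. Differences between classes were fitted with the mouse as a block. Shares and depths were compared by two-sided exact permutation of mice. Each library is a separate mouse, and intervals and the floor of 3 counts cover counting error only. Doublets were called per library from artificial doublets, at 0.8% per 1000 nuclei, and kept. The alternatives were DESeq2 and its size factors, no filter, a minimum count of 50, and breeding line or age as a covariate. Another was a block of breeding line and title number together, the latter being the number in the sample title within its line. Further ones were only the groups compared, doublets left out, and 5 or more UMIs of Cux2. The last were thinning to 5000 UMIs, fewer glial UMIs, and each library left out. The test script was tested on simulated data. Genes were named if called without overlap (up to 12 a direction), or as called members and the 3 highest of each list, or as single listed genes. Others were chosen after their values were seen. Coordinates are those of GENCODE on GRCm38, and promoters those of RefSeq. Some genes are not reported here.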

Additional observations from a re-analysis of the deposited data

Results flagged for a closer look

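The share of Cux2 nuclei in non-transgenic replicate 3 (6.88%) stood apart from the other non-transgenic mice, with a gap of 0.858 of the group's range. The Cox8a level had a gap of 0.959, because non-transgenic replicate 1 stood at 14.5 CPM and the others within a narrow range at 13.6. Sorbs2os had a gap of 0.845, with non-transgenic replicate 4 at 80.7 CPM and the others from 116 to 122. In all, 43 groups of 4 values were tested against Dixon's 95% limit and 3 passed it, where chance passes about 1 in 20.

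The difference of 9330185C12Rik between all 7 carriers, which include the mice with Cre and an Ikbkb allele, and the non-transgenic mice differed between classes. The log2 fold change in Cux2 nuclei minus that in Hs3st4 nuclei was -2.94 (edgeR adjusted p = 0.0261). The call was lost in 4 other settings and without any 1 of 6 libraries.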

How the results depend on the processing

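Without the filter on low counts, edgeR called 96 genes for P301S, 121 for knockout, 184 for active IKKβ and 134 for all carriers. The differences from Rorb nuclei then gave 75, 100 and 45 calls for knockout, active IKKβ and all carriers, and those from Hs3st4 nuclei 45, 93 and 155. DESeq2 called 2 for knockout, 1 for active IKKβ and 9 for all carriers. With only the groups compared, active IKKβ gave 4 calls. All carriers gave 2 calls with line as a covariate, with doublets left out and in thinned counts. Knockout against Rorb nuclei gave 2 with doublets left out. The call of 9330185C12Rik gave 0 at a minimum count of 50, with doublets left out, in thinned counts and with fewer glial UMIs. That last setting left so few counts that Gm43049 was not tested, and gave 0 calls for P301S and all carriers. The cause of the other changes was not tested.

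With each library left out in turn, calls ran from 0 to 2 for active IKKβ, 1 to 3 for all carriers, 0 to 1 for knockout and for all carriers against Rorb nuclei, 0 to 1 for knockout against Hs3st4 nuclei and 0 to 2 for all carriers against Hs3st4 nuclei. The 2 calls of active IKKβ, Glp1r and Ubash3b, came without non-transgenic replicate 4. Beside Gm43049, all carriers then gave Oprd1 without non-transgenic replicate 4, Ikzf1 without P301S replicate 1, Egr1 and Junb without knockout replicate 2, and Banf2 without active IKKβ replicate 2. The share of excitatory nuclei over all carriers ran from -1.93 to 0.458 points, turning without non-transgenic replicate 3, and median UMIs from -11.4 to 1039, turning without knockout replicate 2. The log2 fold change of Ikbkb ran from -0.179 to 0.0327 in knockout and from -0.0141 to 0.198 in active IKKβ mice, and was -0.0384 in the latter with line as a covariate. Of 1525 values for single genes and for the activity list in single carrier groups, 1460 kept direction and side of the threshold, 59 passed it and 4 turned. The knockout median of the list moved past the spread between libraries without either knockout library (2 values).

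With breeding line and title number together as a block, knockout gave 2 calls (Cmss1 and Sorbs2os) and all carriers 3 (Alpk1, Egr1 and Gm43049). Ikbkb in active IKKβ mice was then -0.0379. The block left the call counts of the P301S and active IKKβ contrasts as they were. Deviations from group means of same-numbered mice of a line correlated at -0.0863 to 0.192 over 10 pairs, 1 of them over 0.1. In the groups of 2 mice such deviations are mirror images (correlation of -1), so this check cannot decide whether the numbers mark pairs. No pairing was assumed.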
